A study of Sus scrofa with 4 samples.

Results

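HAPLN1 positive hypoblast cells of the pig conceptus at day 9 of pregnancy are described here, as 2119 of the 7001 cells kept from the day 9 embryo library (30.3%) and of 19502 cells kept in all. Cells were kept above a minimum of UMIs (unique molecular identifiers, molecules counted once by their barcode), which left 2780 UMIs in the shallowest member, with 500 genes or more and at most 20% of UMIs from the 13 mitochondrial protein genes. A member had APOA1 at 5000 CPM or more (counts per 1000000 UMIs of the cell), KRT18 below 8000 CPM, and 2 HAPLN1 UMIs or more. Members were thus chosen by the measured counts of these 3 genes, whose levels describe the choice and are not findings. The comparison cells were the 2625 kept cells of the same library with APOA1 at 5000 CPM or more and 0 HAPLN1 UMIs, called HAPLN1 zero cells below.

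The study sequenced single cells of pig embryos and of endometrium, the lining of the uterus, at days 9 and 12 of pregnancy, with 1 library for each tissue and day. The groups used here are the day 9 embryo and the day 12 embryo. The labels give no breed, sire, litter or number of embryos for either group, and name no treatment beyond the stage of pregnancy. Embryos were minced and digested with papain, dispase and DNase, and all libraries went through red cell lysis and a droplet kit that reads the 3' end of transcripts. With 1 library per group no difference had a replicate check and no test was run. Intervals are at 95%, exact Poisson for a level and exact binomial for a share or a ratio, and cover counting error only, not the spread between embryos or libraries. Levels of a group are CPM of its summed UMIs.

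The hypoblast, or primitive endoderm, is the layer that lines the cavity of the blastocyst and later becomes the endoderm of the yolk sac. It is known for the transcription factors GATA4, GATA6 and SOX17, for the receptor PDGFRA, and for secreting lipid carriers and basement membrane. HAPLN1 encodes hyaluronan and proteoglycan link protein 1, which ties the sugar polymer hyaluronan to large proteoglycans such as versican in the matrix outside the cell. Of the other genes that mark these cells, SLC39A8 encodes a metal ion importer of the zinc transporter family, RSPO3 a secreted amplifier of WNT signals, HESX1 a homeobox transcription factor known from the anterior visceral endoderm and forebrain of the mouse, and APOC3 an apolipoprotein that slows the clearance of triglycerides.

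Members had a median of 12796 UMIs and 2937 genes per cell, HAPLN1 zero cells 11369 UMIs and 2701 genes. Thinned in every cell to the minimum of UMIs for a kept cell, the medians were 1133 and 1109 genes. Medians of kept cells ran from 3738 to 11884 UMIs over the 4 libraries. The day 9 embryo was deposited with 657829 barcodes, the other 3 libraries with 8105 to 11757. Of the 2119 member barcodes, 16, 7 and 10 were also barcodes of kept cells in the day 12 embryo, the day 9 endometrium and the day 12 endometrium. Without such cells, 2086 members and 2590 HAPLN1 zero cells remained, and HESX1 was 4.43-fold, RSPO3 2.44-fold and SLC39A8 2.96-fold higher in members, close to the values with all cells given below.

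The markers of the hypoblast were present in the members, and those of other layers were low or at 0. GATA6 stood at 183 CPM in members against 171 CPM in HAPLN1 zero cells, SOX17 at 282 against 263 CPM, PDGFRA at 122 against 104 CPM, and GATA4 at 81.4 against 67.8 CPM. In day 9 cells with low APOA1 and high KRT18 (529 cells, referred to as trophectoderm gate cells after the outer layer that forms the placenta), GATA6 was at 16.2 CPM, SOX17 at 24.2 CPM and PDGFRA at 7.99 CPM. Of 14 listed hypoblast markers 13 were matched, among them APOA1, used to choose the cells, and RSPO3, a gene of the label. In members 11 of the 13 were at 10 CPM or more. TTR, the gene of the carrier transthyretin, had 0 counts, and CER1 was below the floor given next. A floor of 3 counts over the members stands at 0.108 CPM. The pluripotency gene NANOG was at 0.0717 CPM, and the epiblast genes PRDM14, KLF17 and FGF4 had 0 counts. Of the 8 matched epiblast genes only DNMT3B, a DNA methyltransferase gene, passed 10 CPM, at 175 CPM in members, 116 CPM in HAPLN1 zero cells and 40.7 CPM in the trophectoderm gate. TBXT and MIXL1, genes of early mesoderm, and PTPRC, PGR and PAEP, genes of blood cells and of the uterus, also had 0 counts. By these markers the name hypoblast fits the HAPLN1 zero cells as well as the members.

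HAPLN1 counts were low and ran from 0 upward over the hypoblast with no second peak, and counts this low cannot show whether the cells form separate sets. Of the 6283 day 9 cells with high APOA1 and low KRT18, 39.6% had 0 HAPLN1 UMIs, 26.6% had 1 and 33.7% (32.6 to 34.9%) had 2 or more. A further 8 cells with 2 UMIs or more were left out by the KRT18 bound and 6 by the APOA1 bound. Among the members, 894 had 2 UMIs, 827 had 3 or 4, and 398 had 5 or more, up to 14. With every cell thinned to that minimum, the variance of HAPLN1 UMIs over the mean was 1.30. It was 1.09 for GATA6, 1.08 for SOX17 and 1.05 for PDGFRA, where 1 is what counting alone gives, and 1.86 for TFF1 and 2.30 for APOC3. A cell with 0 UMIs may therefore still hold the transcript. In the trophectoderm gate 9.8% of cells had a HAPLN1 UMI, at a median of 6169 UMIs per cell, and the level was 14.7 CPM. In free RNA, the 506870 barcodes of that library with 1 to 100 UMIs, HAPLN1 was at 101.6 CPM and APOA1 at 17279 CPM.

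**Figure D1:**
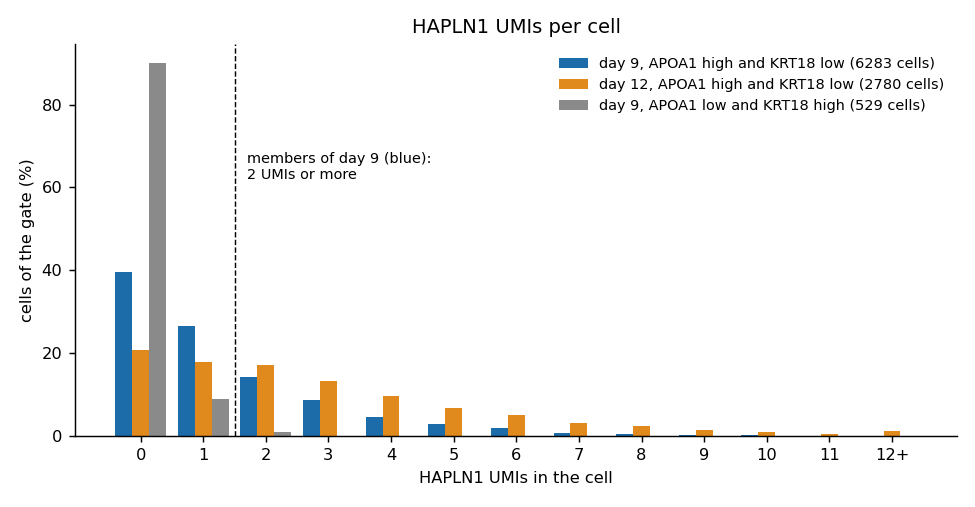
Share of cells (y axis, %) by the number of HAPLN1 UMIs in the cell (x axis, 12 or more pooled), for day 9 cells with high APOA1 and low KRT18 (6283 cells), day 12 cells of the same gates (2780 cells) and day 9 trophectoderm gate cells (529 cells). The shares decline from 0 UMIs upward with no second peak on day 9, and 5 of 529 trophectoderm gate cells have 2 UMIs.

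The first question was what else distinguished the HAPLN1 positive cells of day 9. The 4 other genes of the label were chosen with earlier results of these data known, so their higher levels describe that choice. They were higher by different amounts. HESX1 was at 19.4 CPM in members, 7.78 CPM in cells with 1 HAPLN1 UMI and 4.49 CPM in HAPLN1 zero cells, 4.31-fold higher in members than in zero cells (3.55 to 5.27). SLC39A8 stood at 40.3, 18.3 and 13.7 CPM in the same order (2.94-fold, 2.62 to 3.31), and RSPO3 at 29.9, 13.4 and 12.3 CPM (2.42-fold, 2.13 to 2.75). APOC3 was at 309, 219 and 209 CPM (1.48-fold, 1.43 to 1.53). Cells with a single HAPLN1 UMI lay between the others for all 4 genes, nearer to the zero cells. In the trophectoderm gate HESX1, SLC39A8 and RSPO3 were each at 1.80 CPM and APOC3 at 60.6 CPM.

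At the level of single cells these genes were sparse. A HESX1 UMI was found in 18.8% of members and 4.6% of HAPLN1 zero cells, and after the same thinning in 5.2% and 1.3%. SLC39A8 was found in 34.3% and 13.2% (thinned 10.5% and 3.6%), and RSPO3 in 27.1% and 11.6% (thinned 7.4% and 3.6%). In trophectoderm gate cells each of the 3 was found in 1.3% (thinned 0.8 to 0.9%). APOC3 was found in 88.0% of members, 75.9% of zero cells and 35.0% of trophectoderm gate cells (thinned 48.7%, 39.4% and 17.4%).

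Across all genes, differences between members and HAPLN1 zero cells were few. A gene was called where the larger level was 10 CPM or more and the ratio, with 1 CPM added to both levels, was 1.5-fold or more. Of 6227 genes at that level, 53 were called higher in members (0.851%), HAPLN1 among them, and 25 lower (0.401%). The median log2 ratio over the 6227 genes was 0.04, and the central 90% lay between -0.18 and 0.28. With the KRT18 limit set on the zero cells as well (2490 cells), 57 genes were called higher (0.916%) and 9 lower (0.145%). With zero cells matched to the members in depth (1996 cells, median 12554 UMIs), 54 were called higher (0.867%) and 11 lower (0.177%). The HAPLN1 zero cells include 135 cells above that limit, and the summed level of the 16 matched trophectoderm markers was 4065 CPM with them, 3010 CPM without them and 3580 CPM in members, against 61935 CPM in the trophectoderm gate. Of the 25 lower calls, 9 were also made without these 135 cells and 16 were not. Those 16 were IL1B2, HSD17B1, TMEM254 and GM2A, described below, 4 genes with no symbol, and ATP6V1G3, UPP1, RDH16, KRT7, CST6, CSRP2, SLC37A2 and TRIM29, named here after their values were seen, with all 16 at higher levels in the trophectoderm gate than in either group.

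Beyond the label, the genes with the highest ratios at 50 CPM or more were EPAS1, ID3, ID1 and RDX. EPAS1, the hypoxia-inducible factor 2 alpha gene, was at 79.5 CPM in members and 38.2 CPM in HAPLN1 zero cells (2.08-fold, 1.94 to 2.24). ID3 and ID1, inhibitors of helix-loop-helix transcription factors and well known targets of BMP signals, were at 77.3 against 40.4 CPM (1.91-fold, 1.78 to 2.06) and at 310.3 against 168 CPM (1.85-fold, 1.79 to 1.92). RDX, which encodes radixin, a linker of membrane proteins to actin, was at 525 against 285 CPM (1.84-fold, 1.79 to 1.89). Next came VCAN (versican), FURIN (a protease that activates secreted precursors), HABP2 (a secreted protease that binds hyaluronan), SLC7A7 (an amino acid transporter subunit), LPIN2 (a phosphatase of lipid synthesis), DNMT3B and TMX4. These 7 were between 1.61-fold and 1.48-fold higher, with TMX4 short of the limit for a call. VCAN was at 117 against 72.8 CPM, HABP2 at 113 against 70.9 CPM, and DNMT3B at 175 against 116 CPM. All of these ratios moved by 0.04 or less on the log2 scale with the KRT18 limit on both groups, which left DNMT3B (0.57) below the limit for a call.

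Lower in members were TFF1, ANXA1, S100A6, PHLDA2, RGCC, TM4SF1 and MFAP5, and the KRT18 limit left these ratios nearly as they were. TFF1, which encodes a secreted trefoil peptide of mucosal surfaces, was at 86.8 CPM in members and 181 CPM in HAPLN1 zero cells, 2.09-fold lower in members (1.99 to 2.19). ANXA1, the gene of the phospholipid-binding annexin A1, was at 38.3 against 66.1 CPM (1.73-fold lower, 1.601 to 1.86), and the calcium-binding S100A6 at 75.5 against 119 CPM (1.57-fold lower, 1.49 to 1.66). PHLDA2, an imprinted gene known to restrain placental growth in mice, was at 39.5 against 60.7 CPM. RGCC, TM4SF1 and MFAP5 were 1.44-fold, 1.39-fold and 1.37-fold lower, short of the limit for a call.

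The other 5 of the 12 lowest ratios were of genes high in the trophectoderm gate. IL1B2, the conceptus form of interleukin 1 beta, was at 31.7 against 82.1 CPM, HSD17B1, an enzyme of oestradiol synthesis, at 47.0 against 109 CPM, and TMEM254 at 28.04 against 52.5 CPM. GM2A, a cofactor of ganglioside breakdown, was at 38.2 against 60.3 CPM. PTGES, a prostaglandin E synthase, was at 36.9 against 55.5 CPM, just short of the limit for a call. With the KRT18 limit on both groups the log2 ratio of IL1B2 went from -1.35 to -0.08, that of HSD17B1 from -1.20 to -0.18, that of TMEM254 from -0.88 to -0.13, that of GM2A from -0.65 to -0.16 and that of PTGES from -0.58 to -0.28. In the trophectoderm gate IL1B2 stood at 3006 CPM and HSD17B1 at 3275 CPM.

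**Figure D2:**
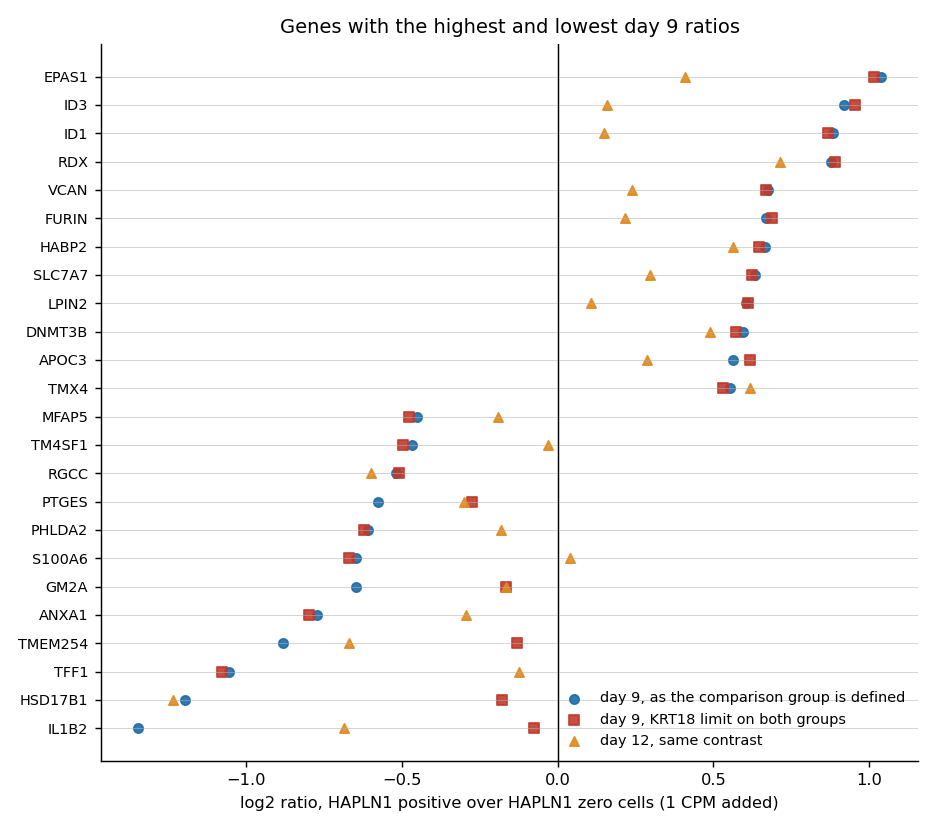
Log2 ratio of HAPLN1 positive over HAPLN1 zero cells (x axis, 1 CPM added) for the 12 genes with the highest and the 12 with the lowest day 9 ratios at 50 CPM or more, with the KRT18 limit on positive cells only (circles), on both groups (squares), and in the same contrast on day 12 (triangles). Circles and squares lie together except for IL1B2, HSD17B1, TMEM254, GM2A and PTGES, whose ratios shrink with the limit on both groups.

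Several genes below 50 CPM had larger ratios, and are named here after their values were seen. WNT11, a non-canonical WNT ligand, was at 12.2 against 3.48 CPM (3.49-fold, 2.79 to 4.41), and FGFR1, a receptor of fibroblast growth factors, at 13.2 against 4.21 CPM (3.13-fold, 2.54 to 3.87). SULF1, which trims sulfates from heparan sulfate outside the cell, was at 30.5 against 10.2 CPM (2.99-fold, 2.61 to 3.42). PDZK1, a scaffold of membrane transporters, was at 16.8 against 4.38 CPM (3.83-fold, 3.14 to 4.70), and CD24, a surface glycoprotein gene, at 28.4 against 7.93 CPM (3.58-fold, 3.09 to 4.17). NDRG1, a gene induced by low oxygen, was at 20.01 against 6.33 CPM (3.16-fold, 2.67 to 3.76). Among lower genes ISG12(A), named for its induction by interferon, was at 9.25 against 24.3 CPM (2.62-fold lower, 2.27 to 3.04).

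Levels of several of these genes also differed by HAPLN1 count within the members, whose lower bound was set by the rule. These classes are cut on the gene that chose the members. They draw the day 9 contrast again in finer steps and lend it no separate support. From cells with 2, to 3 or 4, to 5 or more HAPLN1 UMIs, HESX1 was at 11.07, 20.8 and 34.3 CPM, SLC39A8 at 25.9, 41.7 and 68.3 CPM, and RSPO3 at 19.1, 31.8 and 49.0 CPM. ID1 was at 242, 333 and 411 CPM, BMP2 at 32.3, 43.7 and 49.7 CPM, and EPAS1 at 61.1, 81.7 and 114.5 CPM. TFF1 ran the other way, at 119, 70.2 and 51.8 CPM, as did ANXA1 at 50.1, 34.1 and 21.3 CPM. GATA6 was level, at 183.5, 182 and 184 CPM, and so was APOA1, at 18475, 18592 and 18563 CPM. Median depth in these 3 classes was 12650.5, 12757 and 13162 UMIs. Just outside the rule, the 1674 cells with 1 HAPLN1 UMI had HESX1 at 7.78 CPM, ID1 at 198 CPM and TFF1 at 149 CPM. Counts at the other bounds cover only cells that met the rest of the rule, HAPLN1 included. Of these, 1 cell lay between 5000 and 6000 CPM of APOA1 and 0 between 4000 and 5000. For KRT18, 11 cells lay between 6000 and 8000 CPM and 3 between 8000 and 10000. With APOA1 at 2500 CPM as the bound, members numbered 2120, but HAPLN1 zero cells rose from 2625 to 3033.

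**Figure D3:**
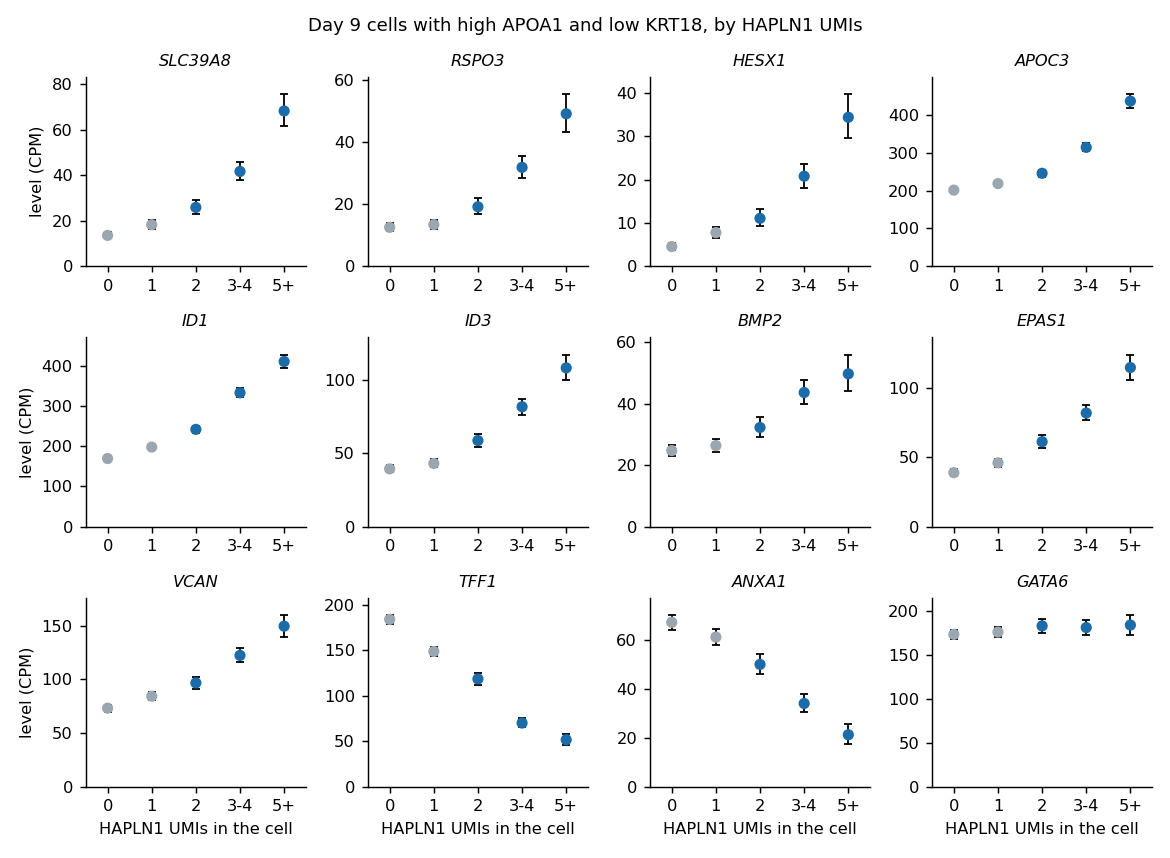
Levels (y axes, CPM from 0) of 12 genes in day 9 cells with high APOA1 and low KRT18, by HAPLN1 UMIs in the cell (x axes), with exact Poisson intervals at 95%; grey points are cells outside the rule and blue points the members. HESX1 reaches 34.3 CPM and SLC39A8 68.3 CPM at 5 or more UMIs, TFF1 and ANXA1 are lowest there, and GATA6 stays between 174 and 184 CPM.

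The genes of the label were also higher together among the members when these were split by another label gene than HAPLN1. All these cells were chosen by HAPLN1, and the label genes with earlier results known, so the splits are no separate support. The 398 members with a HESX1 UMI were set against the 1721 without (medians of 13090 and 12727 UMIs). SLC39A8 was at 64.0 against 34.7 CPM (1.85-fold), RSPO3 at 44.6 against 26.4 CPM (1.69-fold), EPAS1 at 114 against 71.4 CPM (1.595-fold), ID3 at 110.1 against 69.5 CPM (1.58-fold), and HAPLN1 at 297 against 239.9 CPM (1.24-fold). TFF1 was at 54.1 against 94.6 CPM and ANXA1 at 25.9 against 41.2 CPM. GATA6 (0.95) and SOX17 (1.03) had ratios near 1. Members with an SLC39A8 UMI (726 cells) had 2.22 times the HESX1 level, 1.94 times the RSPO3 level and 2.11 times the SULF1 level of those without.

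The 979 members with a TFF1 UMI had lower levels of label genes, at a median of 13956 UMIs against 11859.5 in the 1140 members without. ANXA1 was 1.57-fold and S100A6 1.53-fold higher in them, while SULF1 was at 21.2 against 40.2 CPM, ID3 at 58.7 against 96.55 CPM, SLC39A8 at 31.1 against 49.8 CPM and HAPLN1 at 215 against 287 CPM. Members with a BMP2 UMI (777 cells, median 13535 UMIs) had 0.996 times the HAPLN1 level, 1.02 times the HESX1 level and 1.097 times the ID1 level of those without (median 12341.5 UMIs). Their EPAS1 (1.22, 1.12 to 1.33), SULF1 (1.22, 1.07 to 1.40) and RSPO3 (1.17, 1.01 to 1.34) ratios were above 1, and that of TFF1 was below it (0.782, 0.718 to 0.851). These splits describe cells of 1 library and were not tested.

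Genes of growth factor pathways were examined by lists of unequal size. Called higher were 4 of 14 measured genes for NODAL, BMP and activin, 2 of 8 for WNT, and 1 of 8 for FGF, PDGF and MAPK feedback. BMPs are secreted ligands whose receptors activate SMAD proteins, which induce the ID genes and the inhibitors SMAD6 and BAMBI as feedback. Of 14 measured genes of NODAL, BMP and activin signalling, 12 were higher in HAPLN1 positive cells and 2 lower, and 4 were called higher (ID3, ID1, BMP2 and BAMBI), with a median log2 ratio of 0.16 against 0.04 for all genes. Over all 6227 genes 62.4% were higher in members and 0.851% were called higher, and the counts of the lists that follow stand beside these shares. The ligand BMP2 was at 40.1 against 24.2 CPM (1.66-fold, 1.505 to 1.82), BAMBI, a decoy receptor, at 15.2 against 9.01 CPM (1.68-fold, 1.44 to 1.97), and SMAD6 at 37.7 against 27.97 CPM (1.35-fold, 1.23 to 1.48). FST, the gene of the activin inhibitor follistatin, stood at 899 and 879 CPM. INHBA and INHBB, the activin subunits, the BMP inhibitor GREM1 and the receptor BMPR1B had 0 counts in members.

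Of 8 WNT pathway genes 4 were higher and 4 lower, and RSPO3 and WNT11 were called higher (median 0.08). The WNT inhibitor DKK1 was at 296 and 306 CPM and the receptor FZD7 at 35.3 and 38.9 CPM. RSPO1, RSPO2 and RSPO4 had 0 counts in members, so RSPO3 was the R-spondin gene detected. FGF, PDGF and MAPK feedback genes were higher in 6 of 8, near the 62.4% of all genes (median 0.21), with 1 called, FGFR1, and DUSP6, a phosphatase that damps ERK, at 53.7 against 38.5 CPM (1.40-fold, 1.29 to 1.51). PDGFA was lower, at 19.3 against 24.0 CPM.

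HESX1 was the only called gene among 11 hypoblast transcription factors, 9 of which were higher (median 0.17). HNF4A, a regulator of liver and yolk sac endoderm, was at 68.3 against 54.4 CPM and FOXA2, an endoderm pioneer factor, at 32.2 against 26.1 CPM, while CITED1, a transcriptional coactivator, was lower, at 28.7 against 37.0 CPM. Of the 14 matched genes of the anterior hypoblast, the signalling centre that patterns the epiblast in the mouse, 3 passed 10 CPM (HESX1, FOXA2 and DKK1). CER1, OTX2 and LHX1, which mark that centre, were at 0.0359, 0.143 and 0.0359 CPM in members, and SFRP5 had 0 counts.

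Among hyaluronan matrix genes, 7 of 8 were higher and 2 were called, HAPLN1 by the choice of cells and VCAN (median 0.11). HAPLN3, another link protein, was at 43.5 against 34.8 CPM (1.25-fold, 1.15 to 1.36) and the hyaluronidase gene HYAL2 at 54.4 against 49.7 CPM. HAPLN2 and the hyaluronan synthase gene HAS3 had 0 counts. Of 15 zinc transport genes and metallothioneins 11 were higher, near the 62.4% of all genes (median 0.10), and SLC39A8 and SLC39A5, another importer, were called, the latter at 15.7 against 9.88 CPM (1.59-fold, 1.37 to 1.85). SLC39A14, the transporter most akin to SLC39A8, was lower in members, at 52.8 against 64.8 CPM (1.23-fold lower, 1.15 to 1.32).

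The products the hypoblast secretes in bulk differed little. Of 6 apolipoprotein and plasma protein genes 3 were higher and 3 lower, with 0 called. APOC3, just short of the limit at a log2 ratio of 0.56, was called with the KRT18 limit on both groups (0.62) and with depth-matched zero cells (0.69). APOA2 was at 961 against 1131 CPM, and TTR, AFP, ALB and FGG had 0 counts in members. Basement membrane genes had 0 of 13 called (median 0.02), with fibronectin (FN1) at 5601 against 4823 CPM, perlecan (HSPG2) at 179 against 148 CPM and laminin beta 1 (LAMB1) at 219 against 242 CPM. The folate receptor gene FOLR1 was at 107 against 139 CPM (1.30-fold lower, 1.24 to 1.36). N-cadherin (CDH2) was at 130 against 89.5 CPM (1.45-fold, 1.38 to 1.53), and of 16 cell junction genes 13 were higher, against 62.4% of all genes, with only DSC2 called, at 19.5 against 12.1 CPM.

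Genes of the cell cycle and of metabolism differed little. None of 14 S phase, 17 G2 and M, 21 cholesterol and 13 glycolysis genes was called, with medians of 0.04, 0.03, 0.07 and 0.12. All 12 measured mitochondrial genes were higher in members (median 0.14, 0 called), and the median mitochondrial share was 3.57% in members against 3.15% in HAPLN1 zero cells. Genes induced by dissociation had a median of -0.02 over 8. The part of mitochondrial share in the other differences was not tested.

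**Figure D4:**
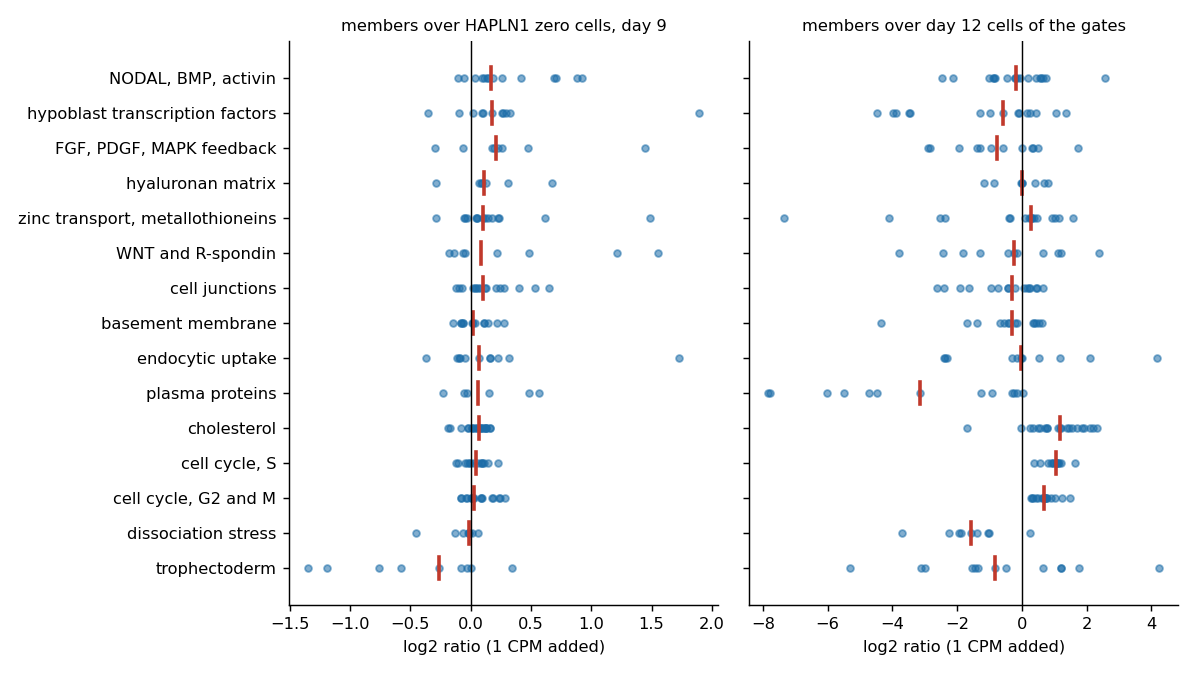
Log2 ratios (x axes, 1 CPM added) of the genes of 15 lists at 10 CPM or more, for day 9 members over HAPLN1 zero cells (left, HAPLN1 itself not drawn) and for day 9 members over day 12 cells of the same gates (right); each point is a gene and each red bar the list's median, HAPLN1 included. On the left the medians lie between -0.26 and 0.21, and on the right between -3.16 and 1.18.

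The second question was whether the same contrast held in the day 12 library, which the rule did not use. On day 12, 2780 of 5808 kept cells met the APOA1 and KRT18 bounds, and 1704 of them (61.3%, 59.5 to 63.1%) had 2 HAPLN1 UMIs or more. They were set against the 595 day 12 cells with high APOA1 and 0 HAPLN1 UMIs. Their depths were far apart, with medians of 11920.5 and 6990 UMIs. Of 6353 genes, 73 were called higher in the positive cells (1.15%) and 125 lower (1.97%). With zero cells matched to the positive cells in depth (476 cells, median 8792 UMIs), 73 were called higher and 109 lower (1.71%).

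SLC39A8 was at 262 CPM in the day 12 positive cells and 160 CPM in the zero cells (1.64-fold, 1.52 to 1.77), RSPO3 at 5.95 against 2.28 CPM (2.60-fold, 1.41 to 5.35), HESX1 at 342 against 275 CPM (1.24-fold, 1.17 to 1.32) and APOC3 at 399 against 327 CPM (1.22-fold, 1.16 to 1.29). BMP2 was at 25.9 against 15.6 CPM (1.66-fold), the same ratio as on day 9, and RDX at 582 against 354 CPM (1.64-fold). ID1 (1.11-fold), ID3 (1.12-fold) and VCAN (1.18-fold) had smaller ratios than on day 9. TFF1 was at 923 against 1005 CPM (1.09-fold lower, 1.06 to 1.12), and CD24, higher in day 9 members, was lower here, at 73.1 against 129 CPM. Whether the ratios differ between the days was not tested, since each day has 1 library.

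Of the 52 genes other than HAPLN1 called higher on day 9, 45 reached 10 CPM on day 12, and 41 of these (91.1%) were higher in the day 12 positive cells as well, against 56.1% of all 5642 genes measured on both days. Calls on both days numbered 7 (WNT11, RDX, SLC39A8, SULF1, AMOT, SLC4A11 and BMP2), which is 13.5% of the day 9 list and 9.72% of the day 12 list. Of the 25 genes called lower on day 9, 18 were measured on day 12 and 17 were lower there (94.4%, against 43.9% of all genes), and 10 were called on both days, HSD17B1 and KRT7 among them. With the KRT18 limit on both groups of each day, 76 genes were called higher on day 12 (1.2%) and 121 lower (1.91%). Of the 9 then called lower on day 9, 6 of 7 measured were lower on day 12, and 0 were called on both days.

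The 5 highest day 12 ratios at 50 CPM or more were those of MT1A, a metallothionein (1761 against 851 CPM), SULF1 (74.7 against 37.8 CPM), SESN1, FETUB (516 against 287 CPM) and AMOT, a regulator of Hippo signalling (72.7 against 40.3 CPM). The 5 lowest were those of ATP6V1G3, a proton pump subunit (55.9 against 158 CPM), RDH16, HAND1, a transcription factor of trophoblast and mesoderm (108 against 246 CPM), BEX4 and the pluripotency-associated DPPA5 (127 against 286 CPM). Of 12 measured trophectoderm markers 11 were lower in the positive cells, where 54.9% of all genes were higher, and 6 were called lower, with a summed level of 5941 CPM against 6405 CPM in the zero cells. All 12 mitochondrial genes were lower as well, by a median log2 ratio of -0.29. The part of depth, trophectoderm RNA and mitochondrial share in this contrast was not tested.

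The third question was how the members stood against all 2780 day 12 cells of the same APOA1 and KRT18 bounds (median 10941.5 UMIs). This comparison uses the members again, and the day is also the library. A gene was called at 2-fold or more. Of 6791 genes, 615 were called higher in members (9.06%) and 704 lower (10.4%), and the median log2 ratio over all of them was 0.20, so values near it do not stand apart. Scaling on the median of ratios shifted every log2 ratio by 0.17 and left 363 genes called higher.

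HAPLN1 stood at 251 CPM in members, a level set by their choice, and at 248 CPM in the day 12 cells, which were not chosen by it. All 6283 day 9 cells of the same APOA1 and KRT18 bounds stood at 112 CPM. The other label genes did not go together between days. HESX1 was 16.7-fold lower in members (15.3 to 18.3), at 19.4 against 324 CPM, and SLC39A8 5.87-fold lower (5.51 to 6.26), at 40.3 against 236.5 CPM. RSPO3 was 5.99-fold higher in members (5.04 to 7.16), at 29.9 against 4.99 CPM. APOC3 was at 309 against 365 CPM, and its log2 ratio of -0.24 turned to 0.03 with the day 12 cells matched in depth. In thinned day 12 cells the variance of APOC3 over its mean was 12.8, with up to 54 UMIs in a cell.

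Several genes from both sides of the day 9 contrast were higher on day 12. EPAS1 was at 79.5 CPM in members and 340 CPM on day 12, ID1 at 310.3 and 583 CPM, VCAN at 117 and 265 CPM, and NDRG1 at 20.01 and 96.2 CPM. TFF1, lower in members than in HAPLN1 zero cells, was at 86.8 and 965 CPM (11.12-fold, 10.7 to 11.6), ANXA1 at 38.3 and 289 CPM (7.54-fold, 7.07 to 8.04) and S100A6 at 75.5 and 435 CPM. BMP2 was higher in members, at 40.1 against 23.3 CPM, but its level in the HAPLN1 zero cells, given above, was close to that of day 12. The part of the choice by HAPLN1 in this difference was not tested. GATA6 was higher in members, at 183 against 87.8 CPM, and its level in the HAPLN1 zero cells was above that of day 12 as well. SOX17 was at 282 and 209 CPM and PDGFRA at 122 and 123 CPM.

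The highest ratios of members to day 12 cells included those of FOLR1 at 107 against 4.99 CPM (21.5-fold, 18.3 to 25.4), the scaffold gene AKAP12 at 174 against 13.6 CPM (12.7-fold, 11.5 to 14.1), the ion cotransporter SLC12A2 at 293 against 34.6 CPM (8.45-fold, 7.93 to 9.02) and FST at 899 against 150 CPM (5.998-fold, 5.81 to 6.19). EMP1, NIN, INSIG1, GPATCH4 and MSMO1 followed, from 5.56-fold to 4.71-fold higher. Over all genes 61.0% were higher in members. Cholesterol genes were higher in 19 of 21, with 12 called higher, 1 called lower and a median of 1.18. S phase genes were higher in 13 of 13 (7 called, median 1.04), with PCNA at 265 against 124 CPM. G2 and M genes were higher in 17 of 17 (3 called, median 0.70), with PLK1 at 105 against 44.1 CPM. Both cell cycle medians exceed the scaling shift.

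Among the lowest ratios were those of secreted proteins and of genes abundant in the rest of the day 12 library. RBP4, the retinol carrier, was at 2.80 CPM in members and 861 CPM in day 12 cells, FETUB, the fetuin B gene, at 1.08 and 459 CPM, transferrin (TF) at 0.179 and 76.2 CPM, and MT1A at 8.28 and 1504 CPM. TNFAIP3, a brake on NF-kappa-B, was at 0.466 and 107 CPM. Of 13 apolipoprotein and plasma protein genes 12 were lower in members, 8 of them called, with a median of -3.16. PLET1 had 0 counts in members and 836 CPM on day 12, at least 7771-fold lower against a floor of 3 counts over the group, but it was at 9263 CPM in the other day 12 embryo cells. CTBS (244 CPM), CTSL (414 CPM), DEFB1 (250.1 CPM) and IFNG (70.0 CPM) in the day 12 cells likewise stood below the other day 12 embryo cells, at 2862, 3890, 2128 and 556 CPM. IFNG rested on 1 count in members, 1952-fold lower (350.0 to 77141). More than 1 gene carries the symbol DEFB1 in the files, and the value is that of ENSSSCG00000029990.

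Other gene groups also differed in this comparison. Of 9 genes induced by dissociation 8 were lower in members, all 8 called, with a summed level of 3177 against 4823 CPM and NR4A1 at 6.81 against 101 CPM. Trophectoderm markers summed to 3580 CPM in members and 5901 CPM in the day 12 cells, with HAND1 at 2.47 and 136 CPM and IL1B2 at 31.7 and 0.74 CPM. Their part in the other differences was not tested. The endocytic receptor gene LRP2 was at 47.0 against 247 CPM and its adaptor DAB2 at 80.8 against 429 CPM. NR5A2, a nuclear receptor, was at 0.502 against 32.7 CPM, and HNF4A at 68.3 against 168 CPM.

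**Figure D5:**
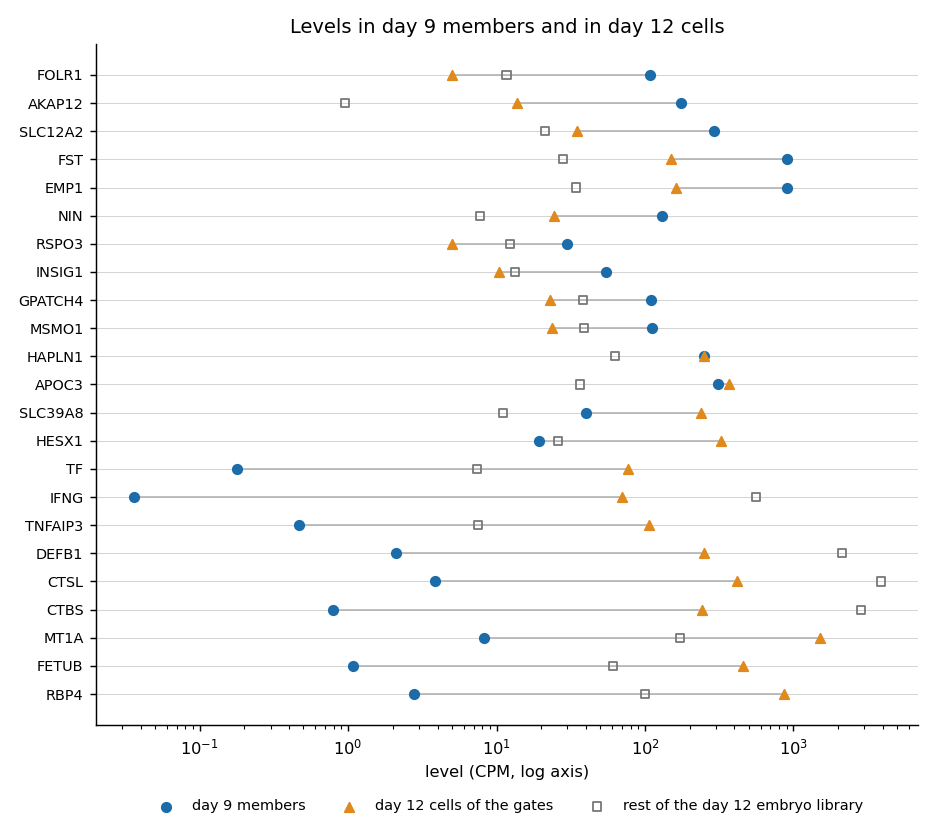
Levels (x axis, CPM on a log axis) in day 9 members (circles), in day 12 cells of the same APOA1 and KRT18 bounds (triangles) and in the rest of the day 12 embryo library (open squares), for the 5 label genes and the genes with the highest and lowest ratios; PLET1, with 0 counts in members, is not drawn. HAPLN1 lies at 251 CPM in members, which were chosen by it, and at 248 CPM on day 12, RSPO3 is higher in members, and for DEFB1, CTSL, CTBS and IFNG the rest of the day 12 library lies above the day 12 cells.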

How the data were processed

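The files hold counts of molecules (UMIs) for each barcode, as deposited. Cell Ranger 6.1.2 and the pig build Sscrofa11.1 are named in the submitters' processing notes, while the day 9 embryo is marked Cell Ranger 4, per the file headers. How cells were called upstream is not given in these sources. Symbols came from the files for 14811 of 21280 genes and from a reference table for 694. Cells were kept and gated as stated above. No clustering and no doublet caller was run; an alternative left out cells above 2 times the median UMIs. Counts were summed per group and scaled to CPM in Python 3.11.15 with scipy 1.17.1, and ratio intervals were tested on simulated data. Genes named follow a rule: at 50 CPM or more, the 12 highest and 12 lowest ratios of the day 9 contrast, 10 and 10 between days, 5 and 5 of the day 12 contrast, the label genes, and up to 4 members of each of 24 lists at 20 CPM or more, with members at 0; exceptions are stated, and some genes the rule names are not reported here. Members, lists (402 of 441 genes matched) and rule were chosen with earlier results of these data known.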

Additional observations from a re-analysis of the deposited data

Results flagged for a closer look

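HAPLN1 was also counted in the endometrial libraries, which no comparison above uses and which have no control sample. In the day 9 endometrium it stood at 152 CPM (146 to 158, 2668 counts), and in the day 12 endometrium at 252 CPM (244 to 261, 3730 counts). Both lie above the floor of 3 counts over the library, at 0.171 and 0.203 CPM. In these libraries 657 of 3652 and 768 of 3041 kept cells had 2 HAPLN1 UMIs or more.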

How the results depend on the processing

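No paired analysis was possible because each group has 1 library and the labels give no replicate numbers. The members were 54.2% of kept day 9 cells with 1 HAPLN1 UMI or more as the bound, 17.5% with 3, 18.9% with 200 CPM, 33.3% among cells of 5000 UMIs or more and 28.8% with at most 5% mitochondrial UMIs. The 53 higher and 25 lower calls of the day 9 contrast became 94 and 49 with the mean of per-cell CPM, 153 and 88 with no minimum level, 11 and 9 with a 50 CPM minimum, 146 and 68 with cells thinned to the minimum of UMIs, 106 and 42 with 3 HAPLN1 UMIs or more, and 125 and 50 with 200 CPM. Calls higher were 35 with 5 CPM added and 21 with 1 HAPLN1 UMI or more. Calls lower were 11 with depth-matched zero cells, 9 with the KRT18 limit on both groups, 8 with APOA1 at 10000 CPM or more, 94 with 2500, and 15 at 5000 UMIs or more. An alternative chosen after seeing the data, the KRT18 limit with depth matching, gave 9 lower calls, and another, without shared barcodes, gave 55 and 25. Between days, calls higher were 363 with scaling on the median of ratios and 378 with 5 CPM added, calls lower 1292 with no minimum, and 249 and 235 were called with a 50 CPM minimum. The day 12 contrast gave 191 and 242 with the mean of per-cell CPM, 341 and 606 with no minimum, and 19 and 36 with a 50 CPM minimum. It gave 37 higher calls with 5 CPM added, and 26 and 72 lower calls with APOA1 at 10000 CPM and with 5000 UMIs or more. The cause of these shifts was not tested, apart from the cells or genes each setting leaves out. Log2 ratios that changed sign, among genes whose main interval excluded a ratio of 1, were small. On day 9, DKK1 was at 0.0168 with per-cell means, 0.0369 thinned, 0.0225 with 1 HAPLN1 UMI or more and 0.0760 with APOA1 at 2500; FOSB was at 0.0022 with per-cell means and 0.15 thinned; FOS was at -0.0064 depth-matched and -0.0020 with the KRT18 limit as well; APOE was at 0.0398 with 200 CPM and 0.0438 with APOA1 at 2500, where PECAM1 was at 0.0153. Between days APOC3 was at 0.0307 depth-matched. On day 12, EPCAM was at -0.0074, GATA2 at 0.20 and PECAM1 at -0.0375 with APOA1 at 10000, and PECAM1 at -0.0386 with 5000 UMIs. Of 1748 day 9 values of 92 named genes, 11 changed sign where the main interval excluded a ratio of 1. Another 325 moved beyond the counting interval and 1412 stayed within it. Sign changes of genes whose main interval included 1 were not counted apart. Genes under about 10 CPM, HESX1 in zero cells among them, rest on few molecules per cell, and a gene with 0 counts may be below detection.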
